A study of Homo sapiens with 21 samples.

Results

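Huh-1 and PLC/PRF/5 are a pair of human hepatocellular carcinoma (HCC) cell lines whose arrays carried high signal for genes of the liver cell, the hepatocyte. They were set against 7 other HCC lines, HLF, JHH-4, JHH-6, SK-HEP-1, SNU-739, SNU-423 and SNU-886, so that 9 of the 21 lines of the series entered the comparison. The sides were chosen by the mean raw log2 signal of 6 liver genes, APOA1, APOA2, FGA, FGB, TTR and SERPINA1, in the table that holds 10 of the HCC lines. The whole series profiled 11 HCC, 5 lung cancer and 5 pancreatic cancer lines once each on Illumina BeadChips, in connection with how far growth depends on the histone demethylase LSD1, the product of KDM1A. The labels record no treatment and no genetic change for any line, and all were grown in medium with serum. The JHH lines were kept in William's E medium and the lines from the American and Korean repositories in Dulbecco's or Roswell Park medium, and the labels do not assign these last media line by line. Each line is 1 culture on 1 array, so every spread given below is a spread between different cell lines and no repeat arrays enter it. The labels call all of these lines HCC cells and name no subclass. Hep3B was left out because its array was dim, and SNU-475 because it was deposited in another table.

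Hepatocytes make most of the proteins of blood plasma and carry the enzymes of urea, bile acid, glucose and drug metabolism. This programme is held by a small set of transcription factors, among them the HNF1, HNF4, FOXA, C/EBP and ONECUT families, that bind near one another's genes and near the genes of secreted proteins. Liver cancers and the lines grown from them keep this programme to very different degrees. Lines that lack it often carry cytoskeletal, matrix and growth factor genes known from mesenchymal cells.

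The 6 genes that chose the sides had a mean raw log2 signal of 12.13 in Huh-1 and 11.19 in PLC/PRF/5. The lines just outside stood at 7.89 (SNU-886) and 7.87 (SK-HEP-1), and the lowest at 6.63 (HLF) and 6.61 (SNU-739). The raw signal of the negative controls was highest in SK-HEP-1, with a mean of 177.7. After normalization the mean of the 6 was 6.32 in SNU-886, 6.23 in JHH-4 and 5.85 in SK-HEP-1. All 6 genes passed a detection p-value of 0.05 in Huh-1 and in PLC/PRF/5, 3 passed in SNU-886 and in SNU-423, and 0 passed in HLF and SNU-739. The name hepatocyte-like restates this choice, because the same 6 genes set the sides, and their detection is no separate support for it. In 2 of the lines labelled as HCC none of these 6 markers passed detection. Even within the 6, the pair was not alike: TTR, the thyroxine and retinol-binding protein carrier, was 10.89 in Huh-1 and 7.75 in PLC/PRF/5 in raw log2 signal. FGA, a fibrinogen chain, was 10.95 and 13.13. For TTR, SK-HEP-1 read 7.87 on this raw scale, above PLC/PRF/5. After normalization SK-HEP-1 was below PLC/PRF/5 for TTR, at 6.11 against 6.72. These 6 genes are left out of what follows, except in counts said to include them and in a flagged value of FGA near the end. All values below are log2 signals after normalization unless a fold is named.

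Between 32.6% and 35.1% of genes were detected on each of the 9 arrays. The signal of the negative controls differed more, with means from 86.5 to 177.7 raw units, highest in SK-HEP-1 and next in PLC/PRF/5 (153.9), and its part in the differences below was not tested. Of 37651 genes, 16794 were detected in at least 2 of the 9 lines and kept. A gene detected in Huh-1 and PLC/PRF/5 alone passes this filter. The median over the kept genes of a list can therefore be larger in size than the median over all its genes. Because all of these genes were read on the same arrays as the 6, no p-value is given for any difference between the sides. A gene was instead counted as higher (or lower) when both lines lay above (or below) all 7 others and the side means differed by at least 4-fold, which is 2 on the log2 scale.

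By this rule 266 of the 16794 genes were counted higher in Huh-1 and PLC/PRF/5, which is 1.58% and includes the 6, and 235 were counted lower, which is 1.4%. With no minimum fold, 5.29% of genes were higher without overlap and 6.14% lower. The median difference over all genes kept was -0.05. Among the 260 higher genes beyond the 6, the median difference was 3.17 and the largest 9.69. Of these 260, 50 were not detected in any of the 7 lines and 44 were detected in all of them. Among the 235 lower genes the median size was 3.02 and the largest 6.97, and 112 were not detected in Huh-1 or PLC/PRF/5. The counts were 154 and 118 without background correction and 145 and 104 on the deposited processed values, and scaling by the array median in place of quantiles gave 299 higher and 168 lower. The rule rests on both lines of the pair: with Huh-1 left out 452 genes were higher and 472 lower, and with PLC/PRF/5 left out 518 and 431.

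**Figure D1:**
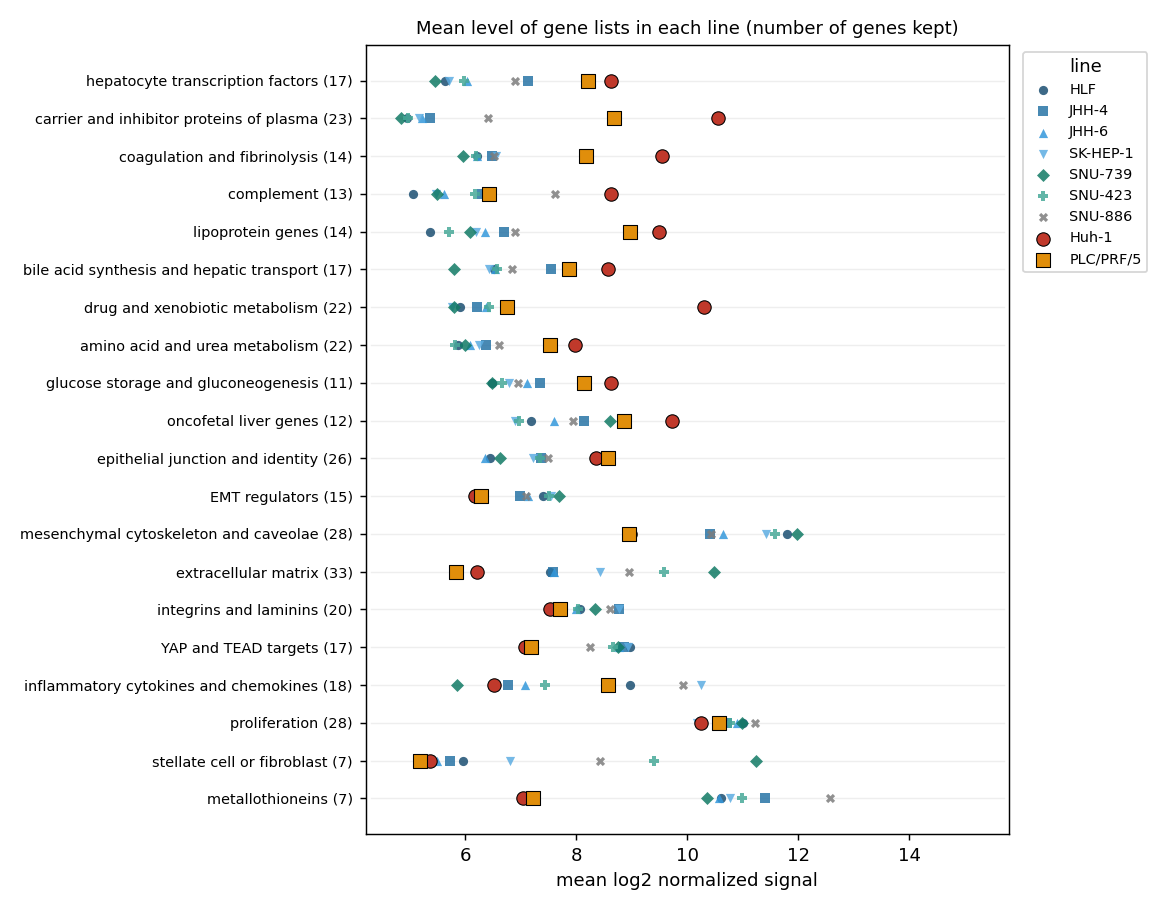
Mean log2 normalized signal (horizontal axis) of the kept genes of each list (vertical axis, number of genes in brackets), 1 point per line; large red circles are Huh-1, large orange squares PLC/PRF/5 and small symbols the other 7 lines. Both lines lie above the other lines for plasma proteins, at 10.56 and 8.68 against at most 6.40, and below them for mesenchymal cytoskeleton, at 8.97 and 8.94 against at least 10.41.

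Plasma proteins held the highest share of counted genes among the lists of hepatocyte function. Of 34 carrier and inhibitor proteins of plasma, 23 were kept, 17 were counted higher (73.9%) and 0 lower, and the median difference was 4.41 (4.2 over all 34). For this and every list below, the shares over all genes kept are 1.58% higher and 1.4% lower. The sides were chosen by liver genes, so a high share in a liver list is no evidence of enrichment. Transferrin (TF), the iron carrier of plasma, had the largest difference of any gene beyond the 6. It read 14.47 in Huh-1 and 14.29 in PLC/PRF/5, and 4.58 at the lowest, 4.71 at the median and 4.86 at the highest of the 7 lines. It was detected in both lines and in none of the others, so that the difference of 9.69 (SE 0.09) corresponds to at least 694-fold. In a bulk sample like this, fewer cells with TF RNA and less TF RNA per cell cannot be told apart. Such a bound sets the high side against the lowest detected signal of each array and allows for the detection limit only. Vitronectin (VTN), an adhesive glycoprotein of plasma, was 11.40 and 12.08 against 4.61 to 5.82, with a median of 4.82 in the 7 lines. Angiotensinogen (AGT), the precursor of angiotensin, was 12.81 and 13.61, and its 7 values were spread from 4.52 over a median of 6.08 to 9.98 in JHH-4. Orosomucoid (ORM1), an acute phase protein, was 13.84 in Huh-1 but 9.15 in PLC/PRF/5, and reached 7.61 in SNU-886 against a median of 4.86. ORM1 and its near-identical neighbour ORM2 may share signal on the array.

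Albumin (ALB), the most abundant plasma protein, was not counted. It was 15.40 in Huh-1 and 9.23 in PLC/PRF/5, and SNU-886 stood at 10.32, above PLC/PRF/5, while the other 6 lines lay between 4.73 and 4.98. The mean of the plasma list was 10.56 in Huh-1, 8.68 in PLC/PRF/5, 6.40 in SNU-886 and 4.84 to 5.36 in the other 6 lines.

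**Figure D2:**
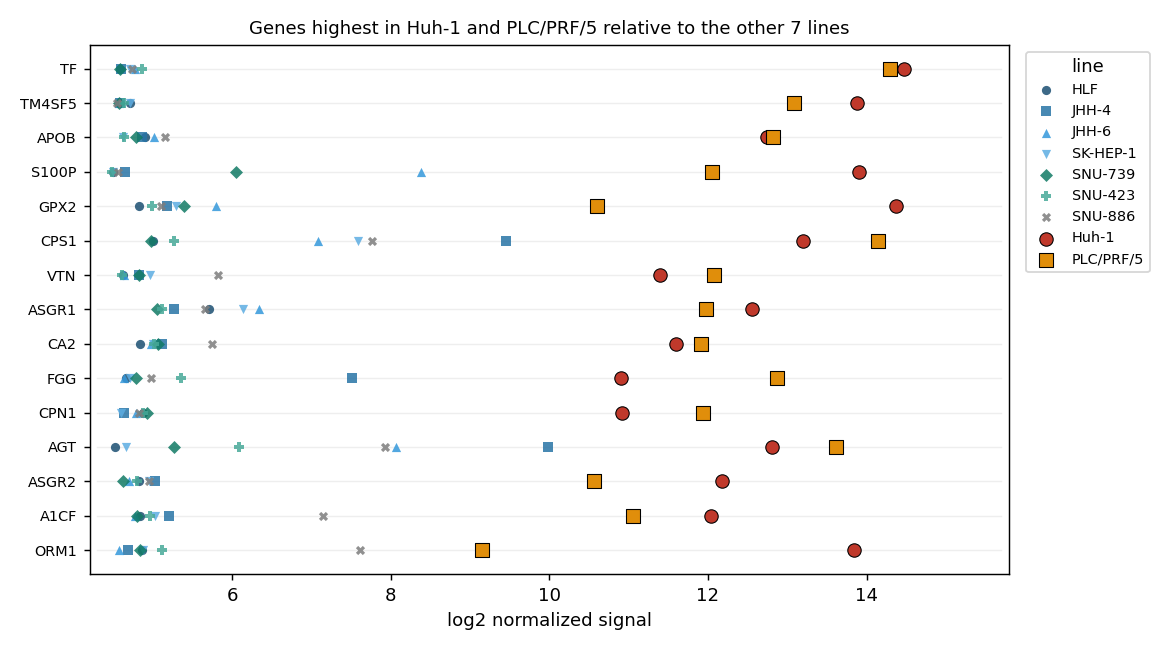
Log2 normalized signal (horizontal axis) in each of the 9 lines of the 15 genes beyond the 6 with the largest difference in favour of Huh-1 (red circles) and PLC/PRF/5 (orange squares); small symbols are the other 7 lines. TF is above 14 in both lines and at most 4.86 in the others, and ORM1 and GPX2 show a wide gap between Huh-1 and PLC/PRF/5.

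The start regions of the higher genes were read for the letters bound by liver transcription factors. RefSeq promoter windows of 300 bases (250 before to 50 after the gene start, build GRCh38.p14) were found for 180 of the 260 higher genes, 168 of the 235 lower genes and 27305 genes in all. The HNF1 core GTTAATNAT, searched on both strands like the other motifs, was present in 8 higher genes (4.44%), 1 lower gene (0.595%) and 205 of all promoters (0.751%). The HNF4 motif CAAAGTCCA was present in 5 higher genes (2.78%), 0 of the 168 lower genes and 98 of all promoters (0.359%). Among the 10141 kept genes that had a window, the shares were 0.434% for HNF1 and 0.276% for HNF4. The FOXA letters TGTTTAC were in 6.11% of higher, 2.98% of lower, 2.26% of kept and 3.41% of all promoters. The C/EBP letters TTGCNNAA were in 8.89% of higher, 8.93% of lower, 7.45% of kept and 10.6% of all promoters. For 2 families that act on growth and mesenchymal genes, the AP-1 letters TGANTCA were in 3.33% of higher, 7.74% of lower, 4.83% of kept and 7.76% of all promoters. The TEAD letters GGAATG were in 11.7% of higher and 13.7% of lower promoters, in 1117 of the 10141 kept genes and in 3836 of all 27305. No match of a motif overlapped one of another in these promoters. The sides were chosen by liver genes, so a high share of HNF1 or HNF4 letters among the higher genes is no separate support for them. A match describes the letters and is not evidence of binding.

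The 7 windows below are shown because each belongs to a listed liver gene that was counted higher and holds an HNF1 or HNF4 match, in capitals, within the 250 bases before the start. The first 5 carry HNF1 letters and the last pair HNF4 letters; a match can lie on either strand of the sequence as written.
LIPC, plus strand of chr15:58431741-58431990: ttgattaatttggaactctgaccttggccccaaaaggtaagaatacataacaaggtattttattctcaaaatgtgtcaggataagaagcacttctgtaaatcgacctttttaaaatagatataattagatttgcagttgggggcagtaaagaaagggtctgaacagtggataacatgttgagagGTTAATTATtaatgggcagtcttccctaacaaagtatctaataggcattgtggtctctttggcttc
AFP, plus strand of chr4:73435971-73436220: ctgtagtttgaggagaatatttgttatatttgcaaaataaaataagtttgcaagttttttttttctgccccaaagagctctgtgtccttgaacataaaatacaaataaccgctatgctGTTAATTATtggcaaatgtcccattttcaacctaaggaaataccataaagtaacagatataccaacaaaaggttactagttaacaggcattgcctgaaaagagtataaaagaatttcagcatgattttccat
PRODH2, minus strand of chr19:35812846-35813095: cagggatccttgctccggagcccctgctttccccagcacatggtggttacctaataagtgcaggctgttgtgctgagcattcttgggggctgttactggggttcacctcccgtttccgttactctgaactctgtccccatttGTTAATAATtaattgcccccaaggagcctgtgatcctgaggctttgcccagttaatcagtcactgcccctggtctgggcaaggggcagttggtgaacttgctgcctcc
G6PC1, plus strand of chr17:42900549-42900798: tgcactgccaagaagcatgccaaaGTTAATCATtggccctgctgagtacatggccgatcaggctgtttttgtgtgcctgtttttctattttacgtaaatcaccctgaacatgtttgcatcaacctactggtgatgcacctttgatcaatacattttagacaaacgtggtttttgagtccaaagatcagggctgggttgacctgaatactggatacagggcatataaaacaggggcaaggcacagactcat
GCKR, plus strand of chr2:27496589-27496838: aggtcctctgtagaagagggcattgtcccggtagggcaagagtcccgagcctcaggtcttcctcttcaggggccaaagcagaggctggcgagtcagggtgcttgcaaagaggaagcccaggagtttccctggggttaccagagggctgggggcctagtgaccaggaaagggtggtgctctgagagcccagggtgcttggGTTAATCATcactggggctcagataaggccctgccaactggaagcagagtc
AHSG, plus strand of chr3:186612810-186613059: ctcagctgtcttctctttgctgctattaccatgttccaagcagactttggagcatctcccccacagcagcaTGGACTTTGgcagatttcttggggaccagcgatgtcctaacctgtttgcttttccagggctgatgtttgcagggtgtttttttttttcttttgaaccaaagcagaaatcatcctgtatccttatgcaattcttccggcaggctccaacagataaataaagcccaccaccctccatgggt
LEAP2, plus strand of chr5:132873418-132873667: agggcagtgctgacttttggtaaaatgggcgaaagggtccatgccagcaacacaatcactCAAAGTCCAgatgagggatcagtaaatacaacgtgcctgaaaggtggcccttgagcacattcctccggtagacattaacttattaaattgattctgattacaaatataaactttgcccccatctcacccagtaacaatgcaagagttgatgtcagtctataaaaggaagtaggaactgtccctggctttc

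The genes of these windows had different levels in the pair. Hepatic lipase (LIPC), whose HNF1 letters begin 66 bases before the start, was 10.83 in Huh-1 and 9.33 in PLC/PRF/5, and 6.89 in SNU-886 against a median of 4.73 in the 7 lines. Glucose-6-phosphatase (G6PC1), the last enzyme of glucose release, was 7.73 and 8.51 and was detected in none of the 7 lines (4.69 to 4.95). Fetuin-A (AHSG), a carrier of calcium phosphate in plasma, was 12.79 in Huh-1 and 6.30 in PLC/PRF/5, against 4.74 to 5.72. The pair was close in G6PC1, while AHSG differed between Huh-1 and PLC/PRF/5 by 6.49.

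Of 14 kept lipoprotein genes 6 were counted higher and 0 lower, with a median difference of 3.08. Over all 22 lipoprotein genes on the array the median was 1.28. APOB, the scaffold of very low density lipoprotein, read 12.74 and 12.82 against 4.62 to 5.15 (median 4.86) and was detected in none of the 7 lines, which gives at least 222-fold. A1CF, which guides the editing of APOB mRNA, was 12.04 and 11.06 against a median of 4.96, with SNU-886 at 7.14. APOE, a ligand of lipoprotein receptors made by many cell types, was counted with a different pattern. It was 13.30 and 15.20, but 5 of the 7 lines carried it as well, at 9.16 in SNU-739, 11.29 in SNU-886, 11.83 in SK-HEP-1 and 11.96 in JHH-6, and JHH-4 lay just below Huh-1, while HLF and SNU-423 were near background at 4.73 and 4.93.

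Of 14 kept genes of coagulation and fibrinolysis 7 were counted higher and 0 lower (median 2.32), and of 13 complement genes 3 and 0 (median 1.24). Over all genes of these lists on the array the medians were 1.75 and 1.11. The third fibrinogen chain, FGG, was 10.90 and 12.87 against a median of 4.79, with 1 bright but undetected value of 7.51 in JHH-4. Factor X (F10) was 8.23 and 10.35 against a median of 4.71, with SK-HEP-1 at 6.77. Factor XII (F12) was 9.51 and 9.86 and nearly as high in SK-HEP-1, at 9.21, while the median of the 7 lines was 5.14. SK-HEP-1 was thus the nearest line for both coagulation factors. In the complement list C5 was 11.65 and 11.87, but it was also detected in 6 of the 7 lines, up to 9.39 in SNU-739. The mean of the complement list was 8.63 in Huh-1 and 6.42 in PLC/PRF/5, and SNU-886 lay between them at 7.62.

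Genes of metabolism and hepatic transport were counted higher in part. In amino acid and urea metabolism 5 of 22 kept genes were higher and 0 lower (median 0.89), in glucose storage and gluconeogenesis 3 of 11 and 0 (median 1.18), and in bile acid synthesis and hepatic transport 4 of 17 and 0 (median 1.08). Over all genes of these lists on the array the medians were 0.68, 0.94 and 0.53. CPS1, which takes up ammonia into the urea cycle, was 13.20 and 14.15, and its 7 other values ran from 4.98 over a median of 7.08 to 9.45 in JHH-4. SLC51B, a subunit of the bile acid exporter of the basolateral membrane, was 10.17 and 11.48 against 4.66 to 5.11, at least 58.3-fold. It was detected in none of the 7 lines. The canalicular exporter ABCC2 was 12.35 and 11.05 but was detected in all 7 lines, up to 10.71 in JHH-6.

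In drug and xenobiotic metabolism 8 of 22 kept genes were higher and 0 lower (median 2.88, and 1.48 over all 37 on the array). Yet this list separated the pair more than any other hepatocyte list. Its mean was 10.30 in Huh-1 and 6.74 in PLC/PRF/5, and PLC/PRF/5 lay within the range of the 7 lines (5.75 to 6.80). The alcohol dehydrogenase ADH1A was 13.93 in Huh-1, 6.47 in PLC/PRF/5 and 4.51 to 5.07 in the 7 lines. ADH1C gave 13.81, 6.13 and 4.47 to 4.74, and these near-identical genes may share signal. UGT1A1, which conjugates bilirubin, was 11.53 and 9.51, but SNU-886 stood at 9.45 beside PLC/PRF/5. UGT1A1 shares exons with the other UGT1A genes, which the array may not separate.

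Some transcription factors of the hepatocyte were counted higher in the pair. Of 23 listed factors 17 were kept, 7 were counted higher (HNF4G, FOXA3, CEBPA, NR5A2, ONECUT1, PROX1 and CREB3L3) and 0 lower, with a median difference of 2.04. Over all 23 the median was 1.42. CEBPA, a driver of hepatocyte differentiation and of growth arrest, was 13.42 in Huh-1 and 9.60 in PLC/PRF/5, and 4.54 to 8.61 (median 5.69) in the 7 lines, highest in SNU-886. PROX1, a homeobox factor of the liver bud, was 9.11 and 9.72 and was detected in none of the 7 lines (4.52 to 5.32), a difference of at least 21.1-fold. CREB3L3, a membrane-bound liver factor that acts on lipid and iron genes, was 10.19 and 9.81, was near background in 6 of the 7 lines and was 8.76 in SNU-886. FOXA3 was 9.44 and 11.23, with JHH-4 at 8.99 and the median of the 7 lines at 5.77.

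HNF4A, the nuclear receptor on which much of the programme depends, was 7.11 in Huh-1 and 5.57 in PLC/PRF/5 against 4.88 to 5.08, a difference of 1.36 (SE 0.34) without overlap that did not reach 4-fold. The array signal of HNF4A was thus low also in lines where plasma protein genes were bright. FOXA1 was 12.49 and 10.95, but JHH-4 reached 11.06, so it was not counted. The bile acid receptor NR1H4 was 12.20 in Huh-1, 5.98 in PLC/PRF/5 and 10.83 in JHH-4. Small heterodimer partner (NR0B2), which represses bile acid synthesis, was detected in PLC/PRF/5 alone of the 9 lines, at 8.89, with Huh-1 at 5.06 and the others at no more than 5.18.
Of the remaining factors, ONECUT1 (6.52 and 8.22 against 4.70 to 5.37), NR5A2 (7.64 and 8.86 against 4.77 to 6.55) and HNF4G (7.67 and 8.06 against 4.61 to 6.77) were counted. FOXA2 (10.29 and 11.55 against 4.63 to 10.68) was bright in several lines, but passed the detection threshold in 1 line only and was not kept. NR1H3, GATA4, ONECUT2, TBX3 and ATF5 differed by 0.84 to 1.42, and PPARA by 0.14. NR1I2, NR1I3 and GATA6 were near background in most lines, differed by 0.50, 0.16 and -0.48, and were not kept.

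Several of the 15 largest differences were outside the lists. TM4SF5, a membrane protein with 4 transmembrane spans that has been studied in liver cancer, was 13.88 and 13.09 against 4.55 to 4.71, at least 373-fold. Both subunits of the asialoglycoprotein receptor, which removes aged glycoproteins from blood, were among them. ASGR1 was 12.55 and 11.97 against 5.05 to 6.34 (median 5.66), and ASGR2 was 12.18 and 10.56 against 4.62 to 5.02 (median 4.83). CPN1, the catalytic chain of carboxypeptidase N of plasma, was 10.92 and 11.94 against 4.60 to 4.93, a difference of 6.64 (SE 0.24), and was detected in none of the 7 lines. The SD among the 7 lines was 0.07 for TM4SF5, 0.50 for ASGR1, 0.15 for ASGR2 and 0.13 for CPN1. The calcium-binding protein S100P was 13.90 and 12.05, with JHH-6 at 8.38 and a median of 4.56. Glutathione peroxidase GPX2 was 14.37 in Huh-1 and 10.60 in PLC/PRF/5 against 4.82 to 5.79. Carbonic anhydrase CA2 was 11.60 and 11.91 against 4.84 to 5.75, highest in SNU-886.

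Genes of the fetal liver and of epithelial junctions were also higher in part. Of 12 kept oncofetal genes 2 were counted higher, AFP and TSPAN8, and 0 lower, with a median difference of 2.16 (1.2 over all 16 on the array). Alpha-fetoprotein (AFP), the fetal plasma protein used as a marker of HCC, was 10.07 and 10.55 against a median of 5.24 in the 7 lines, with SNU-886 at 8.56. Glypican-3 (GPC3), a surface proteoglycan of HCC, was 12.23 in Huh-1 but 7.28 in PLC/PRF/5, below SNU-739 at 8.18, and was not counted. Among 26 kept genes of epithelial junction and identity 6 were higher and 0 lower (median 1.24, and 0.79 over all 38 on the array). E-cadherin (CDH1), the adhesion molecule of epithelia, was 11.43 and 10.56, near background to 6.09 in 6 lines (median of the 7 lines 5.15) and 8.60 in SNU-886. The tight junction proteins CGN (9.94 and 11.54 against up to 8.91 in JHH-4) and TJP3 (8.15 and 7.65 against 4.59 to 4.97, detected in none of the 7) were counted as well.

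The liver programme was not the same in Huh-1 and PLC/PRF/5. For this, a listed gene was counted in a line when it was detected there and stood at least 4-fold above the highest of the 7 lines, a threshold chosen after the values were seen and applied to all 37651 genes. Over the 9 lists of hepatocyte function together, 232 genes beyond the 6 were on the array. Of these, 24 met this in both lines (10.3%, against 0.199% of all genes), 55 in Huh-1 but not PLC/PRF/5 (23.7%, against 0.614%) and 8 in PLC/PRF/5 but not Huh-1 (3.45%, against 0.26%). The sides were chosen to be high in liver genes, so these shares describe how the lists divide and are no evidence of enrichment. Of the 55, 29 were not detected in PLC/PRF/5, while in 27 PLC/PRF/5 still lay above all 7 lines by less than 4-fold or without detection.

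**Figure D3:**
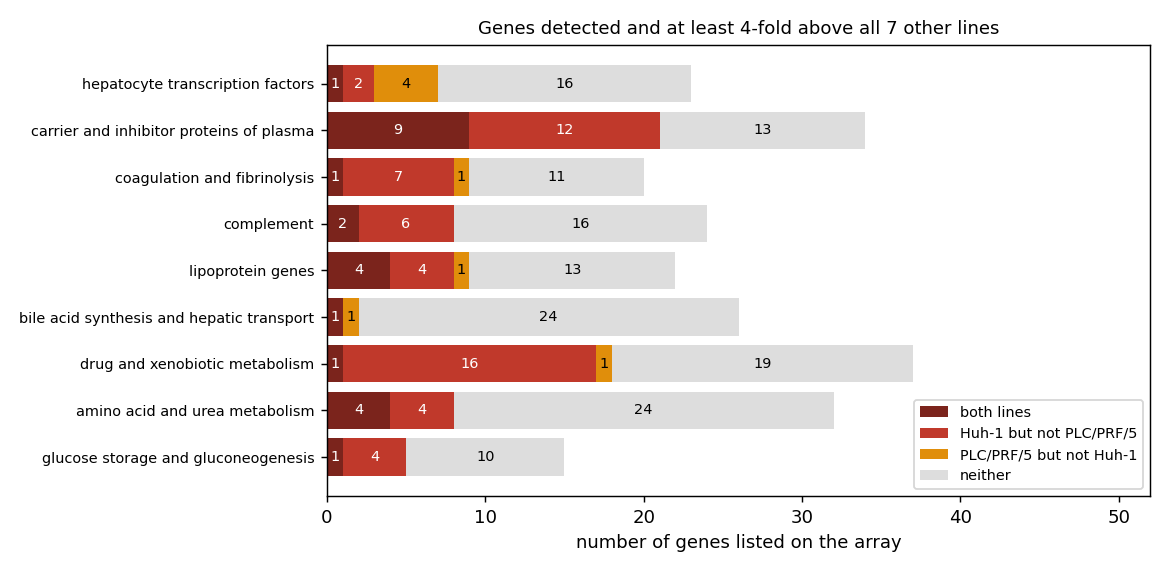
Number of listed genes (horizontal axis, labelled in the bars) of each hepatocyte list that were detected and at least 4-fold above all 7 other lines in both Huh-1 and PLC/PRF/5, in 1 of them or in neither. The drug and xenobiotic list holds 16 genes in Huh-1 but not PLC/PRF/5 and 1 in both, and the transcription factors are the only list with more genes in PLC/PRF/5 alone (4) than in Huh-1 alone (2), apart from the bile acid list with 1 and 0.

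The genes of Huh-1 included several of the most specific liver products. Hepcidin (HAMP), the hormone that limits iron release, was 14.64 in Huh-1 and 4.72 in PLC/PRF/5, and 4.56 to 5.21 in the 7 lines. Antithrombin (SERPINC1), an inhibitor of coagulation proteases, was 4.74 in PLC/PRF/5 and 7.26 higher than that in Huh-1, and the vitamin D carrier GC was 13.40 and 5.44. Each of these 3 genes was detected in Huh-1 and in no other of the 9 lines. In metabolism, HPD of tyrosine breakdown was 12.80 and 4.86, and the arginase ARG1 of the urea cycle was 7.81 and 4.73. These too were detected in Huh-1 alone. The glutathione transferase GSTA1 was 14.21 and 4.88, and its near-identical neighbour GSTA2 gave 14.16 and 4.86. Haptoglobin (HP), which binds free haemoglobin, was 10.26 and 5.11, and MTTP, which loads lipid onto APOB, was 10.51 and 5.07 although APOB itself was equal in the pair.

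Fewer liver genes met the 4-fold threshold over the 7 lines in PLC/PRF/5 but not Huh-1. This is not a count of genes that read higher in PLC/PRF/5 than in Huh-1. Among genes that met the threshold in both lines, FGG was higher in PLC/PRF/5 (12.87, and 10.90 in Huh-1). ITIH2 was higher in Huh-1 (12.12, and 9.59 in PLC/PRF/5). Apart from NR0B2, the 8 comprised FOXA3, NR5A2, ONECUT1, APOE, F10, KLB and CYP1A1, and in 7 of the 8 Huh-1 also lay above all 7 lines. CYP1A1, a cytochrome induced by aromatic compounds, was 10.45 in PLC/PRF/5 and 6.42 in Huh-1, against up to 6.37 in SNU-886. KLB, the co-receptor of FGF19 signalling, was 8.04 in PLC/PRF/5 and 6.82 in Huh-1. The raw background of the PLC/PRF/5 array was higher than that of Huh-1 (control means 153.9 and 94), and its part in this count was not tested.

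Outside the liver lists, the largest differences between the pair were of other kinds. AKR1B10, an aldo-keto reductase found in many HCCs, was 15.26 in Huh-1 and 5.41 in PLC/PRF/5, and JHH-6 was as bright as Huh-1 at 15.18. The calcium-binding protein S100A6 was 13.71 in Huh-1 and 12.21 to 14.21 in all 7 lines, but 4.72 and undetected in PLC/PRF/5. The secreted phosphoprotein SPP1 was 15.12 in Huh-1 and 6.75 in PLC/PRF/5, below the range of the 7 lines (7.51 to 14.65). In the other direction the glutathione transferase GSTP1, which adult hepatocytes make little of, was 15.45 in PLC/PRF/5 and 5.30 in Huh-1, and it was high in HLF, SK-HEP-1 and SNU-739 (13.28 to 14.54). Corticotropin-releasing hormone (CRH) was 14.37 in PLC/PRF/5, 5.99 in Huh-1 and at most 6.38 elsewhere. The cancer-testis genes PAGE2 (13.04 and 4.61) and XAGE1B (12.39 and 4.69) and the glucose transporter SLC2A3 (13.63 and 5.80) also differed between PLC/PRF/5 and Huh-1. PAGE2 was as bright in HLF at 13.58 and XAGE1B in JHH-4 at 13.39, while SLC2A3 reached 11.79 in SK-HEP-1 and less in the other 6.

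The genes that were lower in the pair were led by the surface receptor CD44, which binds hyaluronan. CD44 was 5.59 in Huh-1 and 4.92 in PLC/PRF/5, and it was 10.40 at the lowest (SNU-739), 12.45 at the median and 13.05 at the highest of the 7 lines. The difference of -6.97 (SE 0.65) is 125-fold on the scale of the normalized signal. SPARC, a calcium-binding protein of the matrix, was 4.80 and 4.70 against 9.58 to 12.89 (median 11.03) and was detected in neither line of the pair, at least 78.1-fold lower. DKK1, a secreted inhibitor of Wnt receptors, was 4.98 and 4.95 against 9.59 to 13.22 (median 11.34), at least 79.0-fold lower. All 3 genes were bright in each of the 7 lines, although DKK1 passed the detection threshold in only 4 of them. RFTN1, a protein of membrane rafts, gave 4.72 and 4.62 against a narrow range of 10.49 to 11.89, at least 64.5-fold lower.

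**Figure D4:**
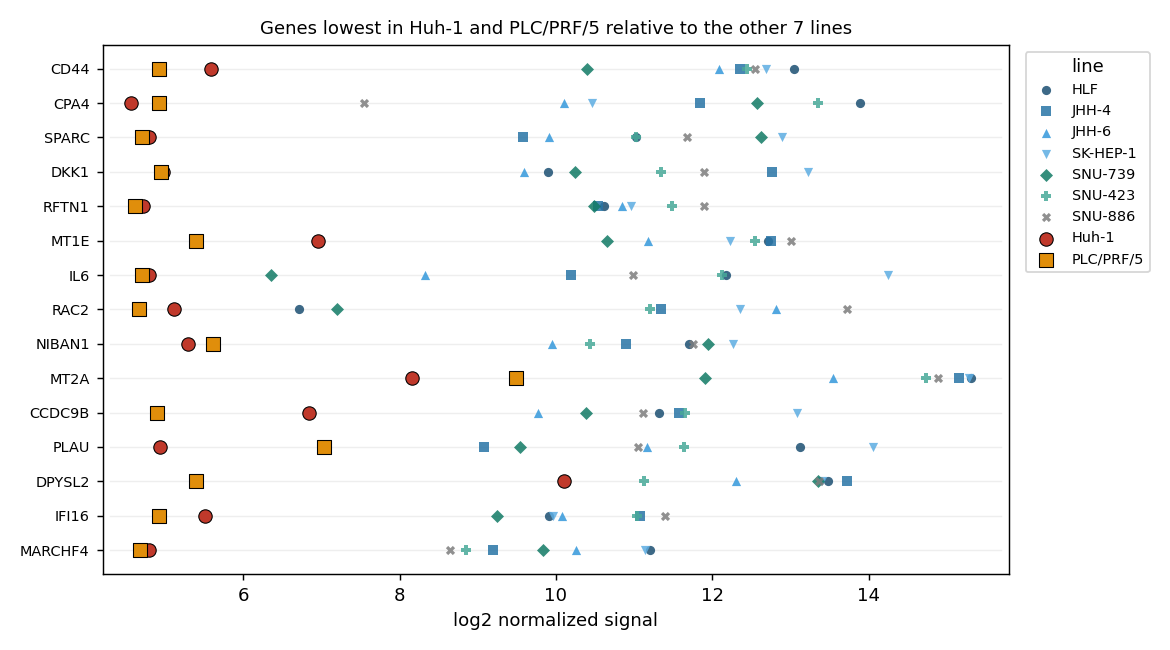
Log2 normalized signal (horizontal axis) in each of the 9 lines of the 15 genes with the largest difference against Huh-1 (red circles) and PLC/PRF/5 (orange squares); small symbols are the other 7 lines. CD44 is at least 10.40 in all 7 lines, IL6 spreads from 6.36 to 14.25, and DPYSL2 is 10.10 in Huh-1.

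Other genes of this group were lower with more spread among the 7 lines. Interleukin-6 (IL6) was 4.79 and 4.70, undetected, and ran from 6.36 in SNU-739 to 14.25 in SK-HEP-1 with a median of 10.99. RAC2, a GTPase known from blood cells, was 5.12 and 4.67 against 6.71 in HLF up to 13.72 in SNU-886. The carboxypeptidase CPA4 was 4.57 and 4.92 against 7.55 in SNU-886 up to 13.89 in HLF. In each of these 3 genes the weakest of the 7 lines was a different one. Urokinase (PLAU), which activates plasminogen, was 4.94 and 7.04 against 9.08 to 14.06, and the DNA sensor IFI16 was 5.51 and 4.92 against 9.25 to 11.40. The microtubule regulator DPYSL2 was counted on the strength of PLC/PRF/5, with 10.10 in Huh-1 and 5.40 in PLC/PRF/5 against 11.13 to 13.73.

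Genes of the mesenchymal cytoskeleton and of caveolae, the flask-shaped pits of the plasma membrane, were lower as a group. Of 28 kept genes 9 were counted lower (32.1%, against 1.4% of all genes kept) and 0 higher. Of the 28, 27 had a negative difference, and the median was -1.78. Caveolin-1 (CAV1), the coat protein of caveolae, was 8.80 and 7.56 against 12.30 to 14.13 (median 13.27). The receptor tyrosine kinase AXL was 6.35 and 9.27 against 11.44 to 13.93 (median 12.34). The actin partner TPM1 was 9.74 and 10.11 against 11.89 to 13.23, and the galectin LGALS1 11.45 and 12.64 against 13.99 to 14.77. These genes were thus detected in both lines of the pair at lower levels. Vimentin (VIM), the intermediate filament taken as a mesenchymal marker, did not follow. It was 12.78 and 11.59 in the pair, 14.43 to 14.80 in 5 of the 7 lines, and only 8.86 in JHH-4 and 4.67 in JHH-6.

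In the extracellular matrix list 10 of 33 kept genes were lower and 0 higher, with a median difference of -2.74. The basement membrane chain COL4A1 was 8.73 in Huh-1 and 4.90 in PLC/PRF/5 against 9.62 to 12.93. The fibrillar chain COL5A1 was 4.75 and 4.89, but JHH-4 was no higher than background at 4.93, while the 6 other lines had 7.79 to 12.61. Tenascin-C (TNC), a matrix protein of remodelling tissue, was 5.25 and 5.07 against 6.72 to 11.31 (median 9.07). The mean of the list was 6.20 and 5.83 in the pair and 7.52 to 10.48 in the 7 lines, where SNU-739, SNU-423 and SNU-886 were highest. Of 20 kept integrin and laminin genes 1 was lower, the laminin receptor chain ITGA3, at a mean of 7.08 in the pair against 8.36 to 12.14.

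Regulators of epithelial-mesenchymal transition, the change from epithelial to migratory cells, held 3 counted genes among 15, all lower (median -1.01). The repressor SNAI2 was 5.33 and 5.05 against 7.04 to 11.82 (median 9.08), and ZEB2 was 4.68 and 5.73 against 6.58 to 9.33 (median 7.95). The growth factor TGFB2 was 6.94 and 5.26 against a median of 9.02, with SNU-886 next to Huh-1 at 7.06. ZEB1, by contrast, differed by -0.03, and N-cadherin (CDH2) was 11.55 and 10.53 within or just below a range of 11.29 to 13.18. Of 17 kept targets of YAP and TEAD, which carry signals of cell shape and density, 5 were lower and 0 higher (median -1.47). CCN1 was 8.62 and 10.53 against 12.02 to 14.55, and ANKRD1 was 8.41 and 4.93 against 9.06 to 11.31. CCN2, a target of the same factors, was not counted: it was 11.17 and 12.10 within a range of 8.23 to 14.11.

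Among 18 kept cytokines and chemokines 3 were lower (IL6, IL1B and IL11), 0 were higher and the median was -0.28. IL1B was undetected in the pair (4.44 and 4.65) and was very uneven in the 7 lines, from 5.09 to 14.57 in SK-HEP-1. The chemokine CXCL8 went the other way in part, at 10.47 in Huh-1 and 14.85 in PLC/PRF/5 within a range of 5.40 to 15.24.

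Metallothioneins, small proteins that bind zinc and copper, were among the lowest genes of the pair. This list was chosen after the values were seen and its genes are near-identical, so that their probes may share signal. Of 7 kept members 5 were lower and 0 higher, with a median of -3.51, and of -2.04 over all 12 on the array. MT2A was 8.16 and 9.49 against 11.91 to 15.31 (median 14.89), and MT1E was 6.96 and 5.39 against 10.66 to 13.01 (median 12.55). Both were lowest in SNU-739 among the 7 lines. The list mean was 7.04 and 7.22 in the pair and 10.36 to 12.57 in the 7 lines. HLA-B, which presents peptides to T cells, was 6.50 and 7.10 against 9.27 to 13.16, and was the 1 member counted lower of 13 kept genes of MHC class I presentation, a list also chosen after the values were seen. B2M, the light chain of class I molecules, differed by -0.29.

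Cell division genes did not separate the sides by this rule: of 28 kept proliferation genes 0 were counted in either direction and the median was -0.54. Of the 28, 21 had a negative difference. With no minimum fold, 5 of the 28 were lower without overlap and 0 were higher. Over all genes kept, 1031 of 16794 (6.14%) were lower without overlap, which is a smaller share. The level of KDM1A, the gene of LSD1, was 10.61 in Huh-1 and 10.70 in PLC/PRF/5 against 11.14 to 11.79 (median 11.25) in the 7 lines. The sides did not overlap, but the difference of -0.68 (SE 0.18) is 1.60-fold and was not counted, and 6.14% of all genes were lower without overlap. Of 16 kept genes of LSD1 and its CoREST partners 1, SNAI2, was lower and 0 were higher, with a median of -0.27.

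Markers of other cell types were read in the same lines. Of 8 endothelial markers 4 were kept, VWF, CDH5, TEK and ERG were not, and the mean of the kept markers was 5.91 and 5.37 in the pair and 5.50 to 6.38 in the 7 lines. SK-HEP-1, a line often described as endothelial in origin, had 5.89, with PECAM1 at 6.60 and KDR at 5.77. Of 9 markers of stellate cells or fibroblasts 7 were kept, and their mean was 5.36 and 5.18 in the pair, 5.48 to 6.80 in HLF, JHH-4, JHH-6 and SK-HEP-1, and 8.42 to 11.24 in SNU-886, SNU-423 and SNU-739. Smooth muscle actin (ACTA2) reached 15.69 and the collagen chain COL1A1 13.55 in SNU-739. The part of such genes in the matrix differences was not tested. The cholangiocyte mean was 10.26 in Huh-1 and 6.79 in PLC/PRF/5 against 7.24 to 10.42. In the leukocyte list PTPRC and CD3E were among the markers not kept, and lysozyme (LYZ) was counted higher through PLC/PRF/5 (12.24), with Huh-1 at 5.69 and SNU-886 at 5.53.

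Among the 7 lines SNU-886 carried most of the liver genes. Of the 232 listed genes beyond the 6, 171 were detected in Huh-1, 116 in PLC/PRF/5 and 110 in SNU-886, and 48 to 70 in the 6 other lines. Over all genes SNU-886 did not stand out, with 13120 detected against 12267 to 13219 in the other 6 and 12473 and 12459 in the pair. It was also the nearest line below the pair in 59 of the 260 higher genes, followed by JHH-4 with 51, and SNU-423 came last with 19. At the same time SNU-886 had the highest metallothionein mean of all lines (12.57), and CD44 (12.55) and VIM (14.68) at the level of the other lines. For the 235 lower genes the nearest line was most often SNU-739 (52) and SK-HEP-1 (40).

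Hep3B and SNU-475 did not enter the choice of sides and were set beside the 9 lines after all 11 HCC arrays were normalized together. Hep3B lay above all 7 lines in 96 of the 260 higher genes (36.9%) and below all 7 in 116 of the 235 lower genes (49.4%). Over all genes kept, however, it lay above all 7 in 27.8% and below all 7 in 35.1%. For SNU-475 the same shares were 18.1% and 30.2%, against 11.7% and 14.2% of all genes kept. These genes were counted by where the 7 lines lay, so shares above those of all genes are no separate support for the sides. Of the 260 higher genes, 88 in Hep3B and 37 in SNU-475 lay on the pair's side of the midpoint between the side means. Of the 235 lower genes, 122 and 79 did. Hep3B, whose array detected 24.9% of genes against 34.4% for SNU-475, stood outside the range of the 7 often for any gene.

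**Figure D5:**
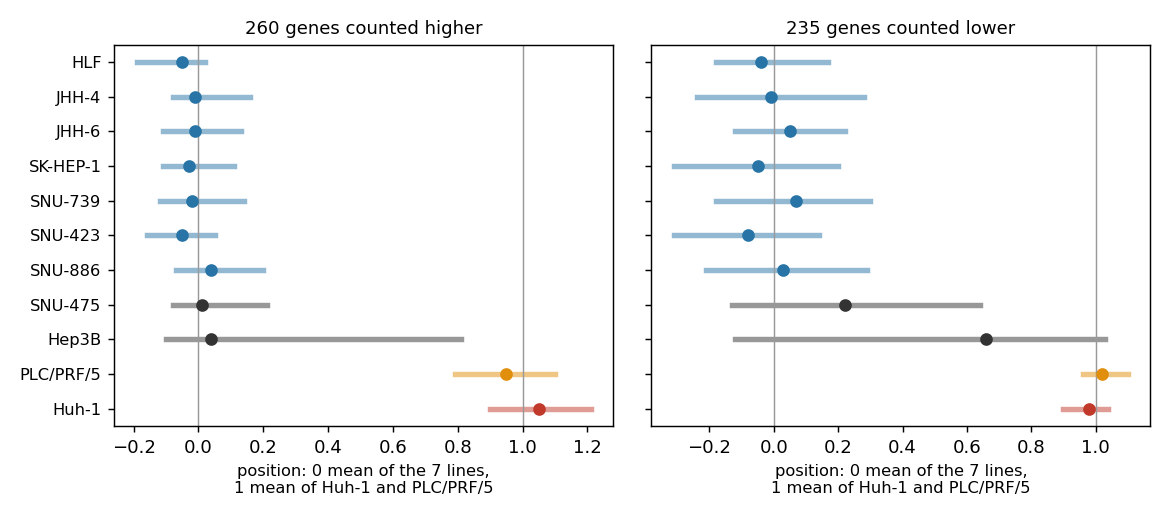
Position of each HCC line between the mean of the 7 lines (0) and the mean of Huh-1 and PLC/PRF/5 (1) for the 260 genes counted higher (left) and the 235 counted lower (right); points are medians over genes and bars the quartiles. The positions of the 9 lines follow from the way genes were counted; for the lower genes Hep3B has a median of 0.66 and SNU-475 of 0.22, and for the higher genes their medians are 0.04 and 0.01.

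Single genes show how uneven Hep3B was. The transcription factors CEBPA (12.23), HNF4G (10.13), CREB3L3 (8.50) and NR1H4 (10.51) were detected in Hep3B. In the same joint normalization, CEBPA lay between Huh-1 (13.42) and PLC/PRF/5 (9.58). NR1H4 also lay between them (12.18 and 5.99), with JHH-4 at 10.80. HNF4G was above both lines of the pair (7.65 and 8.03). CREB3L3 was below both (10.17 and 9.79) and below SNU-886 (8.73). TF (4.85), APOB (4.65), FGG (4.85) and AFP (4.75) were not detected, although Hep3B is widely known as a line that makes AFP. Its array therefore goes against what is known of the line for this gene. Hep3B was left out of the sides because its array was dim, and results on it are given apart from the others. Of the lower genes, DKK1 (4.91), RFTN1 (4.52) and SNAI2 (4.74) were undetected in Hep3B, and CD44 (10.20), MT2A (13.68) and AXL (11.77) were at or near the levels of the 7 lines. SNU-475 had AFP at 9.11, TF at 4.94 and APOB at 4.91. Its lower genes were uneven. CD44 at 11.14, CAV1 at 12.83 and SPARC at 11.24 lay within the range of the 7 lines, RFTN1 at 6.03 and MT1E at 8.40 lay below all 7, and IL6 (5.45) and MARCHF4 (4.79) were undetected.

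The lung and pancreas lines were read on another array design, so only detection was compared. Of the 260 higher genes 253 were listed there, and 46 of these (18.2%) were detected in none of the 10 lines and 17.4% in all of them. Of the 235 lower genes 234 were listed, 9 (3.85%) were detected in none and 35.0% in all. Over all genes kept the shares were 8.53% and 51.9%. TF, APOB, VTN, FGG, AGT, ASGR2 and SLC51B were detected in none of the 10 lines, while ASGR1 was detected in 7, CPS1 in 7 and CDH1 in 6. CD44 was detected in 9, and CAV1, AXL, TNC and MT2A were detected in all 10.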

How the data were processed

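RNA of 21 untreated cell lines was labelled with biotin and hybridised to Illumina BeadChips, 1 array per line. The authors used BeadStudio, per the submitters' processing notes; no version, probe summary or background step is given in the sources used here. The authors deposited raw intensity per gene, an average over beads with no scaling between arrays, per the file headers. Each deposited intensity comes with a deposited detection p-value against negative controls. A deposited set of processed intensity values served as an alternative. The number of arrays limits the precision.

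The normal-exponential correction of limma 3.58.1 (R 4.3.3) was applied to the raw signals, taking control mean and SD from the median raw signal found at each p-value of detection. An offset of 16, quantile normalization of the 9 arrays and log2 followed. Of 37878 listed names, 16013 were current RefSeq symbols, 2869 were updated to one and 18996 stand as listed; of several names for 1 gene, the brightest served. A gene was kept when its detection p-value was below 0.05 in 2 or more of the 9 lines. That threshold was missed by 4.66% of signals over the control mean by 10 SD, and 160 genes so bright in 2 or more lines were not kept.

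Sides were compared by description only. Standard errors come from lmFit without moderation or test. Lines are not replicates of a condition, and no p-value was computed. A gene undetected throughout a side got a bound in place of a fold: per array the larger of its own value and the lowest detected signal, averaged over that side. Named genes were the 6 of the choice, KDM1A, the 15 largest differences each way among counted genes with a gene name, up to 4 counted members per list, all listed hepatocyte transcription factors, the fixed cell type markers and the 5 largest differences each way between Huh-1 and PLC/PRF/5; others were chosen after their values were seen. The members and gene lists were chosen with earlier results of these data known. Promoter windows are those of RefSeq on GRCh38.p14; the build of the array annotation is not given in the labels or headers. Alternatives were the background, offset, scaling, detection filter, fold and name choices, the processed values, Hep3B in the normalization and leaving out each line; the filter on bright raw signal was added after seeing the data. Scripts were tested on simulated data. Tables were handled in Python 3.11.15 with pandas 2.3.3 and NumPy 2.4.6, and figures drawn with Matplotlib 3.10.9. Some genes are not reported here.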

Additional observations from a re-analysis of the deposited data

Results flagged for a closer look

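Single lines among the 7 stood far from the other 6 in 23 of 118 values examined, by the gap to the nearest line as a share of the range. The cutoff is set to flag about 1 in 20 independent values by chance. The values here are chosen and related genes, so that rate is no measure for the 23. Where the other lines lie near background, a small rise can make a large share of the range. No cause was tested. In 13 of these genes the line was SNU-886, each time the highest: FGA at 6.56, VTN at 5.82, CA2 at 5.75, A1CF at 7.14, ORM1 at 7.61, CREB3L3 at 8.76, FGL1 at 6.65, LIPC at 6.89, SLC51B at 5.11, UGT1A1 at 9.45, HGD at 6.89, AFP at 8.56 and CDH1 at 8.60. FGA is one of the 6 genes by which the sides were chosen, and its value is given as a description. The mean of the plasma protein list was also highest in SNU-886, at 6.40. JHH-4 was far above the others in FGG at 7.51 and FOXA3 at 8.99, and JHH-6 in S100P at 8.38. SLC51B and FGG passed detection in none of the 7 lines. SK-HEP-1 was far above in F10 at 6.77, F12 at 9.21 and IL1B at 14.57. SNU-739 was far below in CD44 at 10.40, ITGA3 at 8.36 and the leukocyte list mean at 5.69.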

How the results depend on the processing

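No paired analysis was possible because the lines carry no replicate numbers that pair them and no test was made. Against 266 genes higher and 235 lower, the counts were 154 and 118 without background correction and 145 and 104 on the deposited processed values, of which 144 and 104 were among the main ones. They were 544 and 587 at 2-fold and 151 and 119 at 8-fold. Leaving out each line in turn gave 273 to 518 higher and 232 to 472 lower genes. The extremes came from leaving out Huh-1 (452 and 472, with 186 and 216 shared) or PLC/PRF/5 (518 and 431, with 192 and 202 shared), where the remaining line of the pair alone has to lie beyond the 7, while leaving out any of the 7 lines gave 273 to 295 and 232 to 274. Counts within 1.5 times were 204 and 170 with an offset of 50, 299 and 168 with median scaling, which moved the median difference of all genes from -0.05 to 0.16, 280 and 237 without the detection filter, 233 and 224 at a detection p of 0.01, 212 and 232 with 3 lines required, 258 and 226 with Hep3B normalized along, 263 and 235 with the mean of names, and 189 and 237 with the filter on bright raw signal added after seeing the data. No difference of a named gene changed sign where it was counted; 2491 differences moved by less than 1 SD between lines and 267 by more, and 79 list medians moved by more while 415 did not. Signal close to the negative controls limits every fold of an undetected gene.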

Other observations

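Outside the lists, 4 counted genes whose promoter windows held HNF1 or HNF4 letters are described here, chosen after their values were seen. Mucin 13 (MUC13), a surface mucin of gut and liver cancers, was 10.39 in Huh-1 and 7.77 in PLC/PRF/5 against 4.51 to 5.05 in the 7 lines, where it was not detected. PDZK1, a scaffold for membrane transporters, was 10.67 and 7.76 against 4.83 to 6.99. GLYCTK, a kinase of glycerate, was 10.69 and 9.71 and was detected in all 7 lines at 7.09 to 8.10. GOLT1A, a Golgi membrane protein, was 10.51 and 10.90, with JHH-4 next at 9.79.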
